A study of Mus musculus with 4 samples.

Results

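The 35 genes described here encode the machinery of protein folding and secretion in the endoplasmic reticulum (ER) and the regulators of the unfolded protein response. They were listed by symbol from their known roles, not by a measured value, though with earlier results of these data known. All 35 were found among the 31053 genes of the count tables. By role they comprise 9 chaperones and folding factors of the ER lumen, 6 lectin chaperones and disulphide isomerases, 5 factors of procollagen folding, 4 of translocation and COPII transport, 8 stress sensors and transcription factors, and 3 of ER-associated degradation. Single-cell RNA libraries had been made from cells released by Liberase from the epiphyses (the cartilage-rich ends) of mouse tibia and femur. There were 4 libraries: wild type at postnatal day 13, Sox9fl:fl AcanCreERT2/+ at day 13, wild type at day 19 and Sox9fl:fl AcanCreERT2/+ at day 19. In the mutant, both copies of Sox9 carry loxP sites and a tamoxifen-dependent Cre recombinase is made from the Acan gene, so recombination is directed to cells that use Acan, chiefly chondrocytes. The sources used here do not state when tamoxifen was given, whether the controls received it, or whether animals were pooled. Each genotype and age was 1 library, so no value below has a replicate within its group.

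The ER folds and modifies every secreted protein, and chondrocytes and osteoblasts, which secrete collagens and proteoglycans, carry a large ER. When unfolded protein accumulates, the chaperone BiP (Hspa5) leaves the lumenal domains of the sensors IRE1 (Ern1), PERK (Eif2ak3) and ATF6. IRE1 splices Xbp1 messenger RNA, PERK slows translation and favours that of ATF4, and ATF6 is cut in the Golgi to release a transcription factor. Their targets include chaperones, translocation and degradation genes, and, downstream of PERK, Ddit3 (CHOP). Creb3l1 (OASIS) and Creb3l2 (BBF2H7) are relatives of ATF6, known for controlling secretory genes in osteoblasts and in chondrocytes respectively.

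Members of this response share short promoter sequences. They are printed here because 7 of the 11 genes that hold one had the same pattern of differences between genotypes described below (5 of 11 after TMM scaling). Of all 29 genes with a promoter entry, 10 had it (7 after TMM scaling). The pattern was read from these same data, and the elements were not told apart from gene role. Promoters from RefSeq (build GRCm38.p6; 250 bases before the annotated start to 50 after it) were matched for 29 of the 35 genes; Hyou1, Manf, Fkbp10, Sec61a1, Atf6 and Creb3l1 had no entry. Both strands were searched for the ER stress response element (ERSE; CCAAT and CCACG with any 9 bases between them), which 37 of 27025 genes (0.137%) held in this window. It was in 7 of the 29: Hspa5, Hsp90b1, Dnajc3, Creld2, Calr, Canx and Pdia6. The variant ERSE-II (ATTGG and CCACG with any 1 base between them) was in 12 genes (0.0444%), among them Dnajb11 and Herpud1. The element TGACGTGG (UPRE) was in 193 genes (0.714%), among them Sec23a and Sec24d, and the ATF4-type element TTGCATCA (CARE) was in 279 (1.03%), among them Herpud1. A match is a stretch of letters and was not shown to be a bound site. The 250 bases before the start follow for 4 genes with the first element and for Herpud1, which held 2 different elements, with matched letters in capitals; in Calr and Creld2, and for 1 of the 2 matches in Hsp90b1, they stand as the reverse complement (CGTGG before ATTGG).
Hspa5 (chr2:34771840-34772089, plus strand): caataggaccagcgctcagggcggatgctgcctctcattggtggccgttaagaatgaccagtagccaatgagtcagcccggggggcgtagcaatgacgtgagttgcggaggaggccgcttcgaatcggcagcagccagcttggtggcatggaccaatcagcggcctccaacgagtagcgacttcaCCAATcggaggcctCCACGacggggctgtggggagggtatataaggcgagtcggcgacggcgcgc
Hsp90b1 (chr10:86705445-86705694, minus strand): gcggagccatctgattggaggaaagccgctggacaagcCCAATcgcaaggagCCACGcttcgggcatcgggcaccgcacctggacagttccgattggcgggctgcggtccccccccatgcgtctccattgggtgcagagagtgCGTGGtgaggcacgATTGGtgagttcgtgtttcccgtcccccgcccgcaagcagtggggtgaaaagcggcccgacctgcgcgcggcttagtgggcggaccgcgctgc
Calr (chr8:84846932-84847181, minus strand): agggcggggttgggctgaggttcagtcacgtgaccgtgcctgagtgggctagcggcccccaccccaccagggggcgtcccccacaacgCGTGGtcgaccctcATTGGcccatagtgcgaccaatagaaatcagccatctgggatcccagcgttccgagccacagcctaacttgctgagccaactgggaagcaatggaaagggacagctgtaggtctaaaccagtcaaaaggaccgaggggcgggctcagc
Creld2 (chr15:88819396-88819645, plus strand): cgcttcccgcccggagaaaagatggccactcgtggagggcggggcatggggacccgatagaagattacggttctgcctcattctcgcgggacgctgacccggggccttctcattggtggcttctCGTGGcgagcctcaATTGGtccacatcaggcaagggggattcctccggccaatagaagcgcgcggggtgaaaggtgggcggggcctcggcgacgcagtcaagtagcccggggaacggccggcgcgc
Herpud1 (chr8:94386179-94386428, plus strand): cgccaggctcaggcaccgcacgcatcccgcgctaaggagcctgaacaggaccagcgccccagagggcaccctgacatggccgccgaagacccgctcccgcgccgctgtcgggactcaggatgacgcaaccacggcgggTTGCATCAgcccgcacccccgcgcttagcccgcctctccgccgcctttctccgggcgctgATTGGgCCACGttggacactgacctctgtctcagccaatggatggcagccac
Counted back from the annotated start, the first base of the match lay 65 bases before it in Hspa5, 162 in Calr, 126 in Creld2, and 212 and 107 in Hsp90b1. In Herpud1 the CARE match lay 112 bases and the ERSE-II match 52 bases before the start.

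The libraries held 8053 to 12714 barcodes and 70507107 to 76080803 unique molecular identifiers (UMIs), and 6240, 7303, 7156 and 9699 cells were analysed (in the order wild type day 13, mutant day 13, wild type day 19, mutant day 19, which all lists of 4 values follow). Between 10 and 33 cell barcodes were shared by any 2 libraries, at most 0.452% of the smaller. Chondrocyte-like cells, 4389, 3469, 1089 and 2972 of them, formed 7 clusters. The libraries filled them unequally: cluster 5, led by Myoc and Pi15, had 3, 1127, 9 and 1006 cells, and cluster 6, led by Cryba2 and Mmp13, had 27, 1158, 10 and 854. The other 5 clusters had at least 53 cells in every library, but 3 of them made up less of the class in both mutant libraries. Cluster 1, led by Tnni2 and Frzb, was 34.2%, 8.71%, 24.5% and 11.2% of it, cluster 3, led by Ucma and Sfrp5, 24.1%, 3.75%, 12.9% and 5.18%, and cluster 4, led by Ppa1, Il17b and Panx3, 21.7%, 1.53%, 27.9% and 3.26%. Sox9, the targeted gene, was at 359, 202, 455 and 178 counts per 1000000 UMIs of the class (CPM) in chondrocyte-like cells, and Acan, the gene that drives the Cre, was at 4325, 1009, 4273 and 1176 CPM. These tags come from the 3′ end of transcripts and may lie outside the deleted stretch, so the level of Sox9 does not measure recombination. Summed CPM of 17 chondrocyte markers in the class was 112080, 43580, 107517 and 50868. That of 14 osteoblast markers was 3372, 8945, 2500 and 5780, and that of 14 fibroblast or tendon markers 4724, 13807, 3674 and 11170; the part of these shifts in any difference between genotypes below was not tested.

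Together the 35 genes supplied 1.02%, 1.11%, 1.35% and 1.07% of the UMIs of chondrocyte-like cells. Across 12 cell classes their summed level, as the median of the 4 libraries, was 12016 CPM in osteoblast-like, 10894 in chondrocyte-like and 9906 in fibroblast or tendon-like cells. It was 2862 CPM in erythroid-like and 2697 in neutrophil-like cells. The ranges were 11464 to 13192, 10214 to 13476 and 8961 to 11075 CPM, so chondrocyte-like cells overlapped with both other skeletal classes, and every osteoblast-like library lay above every fibroblast or tendon-like library. By median level, 13 of the 35 genes were highest in osteoblast-like, 7 in chondrocyte-like and 4 in fibroblast or tendon-like cells. Clusters are made from the same cells, so these are descriptions with no test, and osteoblast-like values of the wild type rest on 56 and 18 cells.

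Roles differed in where they stood highest. Serpinh1 (HSP47, the collagen chaperone) was at 1938 to 2753 CPM in osteoblast-like and 1577 to 2693 CPM in chondrocyte-like cells, against a median of 82.5 CPM in B cell-like cells. The other 4 procollagen factors had the same order of skeletal over blood classes. All 4 translocation and COPII genes were highest in osteoblast-like cells, and for Sec61b (1190.1 to 1359 CPM) and Sec23a (62.7 to 79.7 CPM) no library of the next class reached the osteoblast-like range. Calr, which encodes the lectin chaperone calreticulin, was highest in chondrocyte-like cells, at 884 to 1198 CPM, above every library of the second class, macrophage-like cells. Among the sensors, Ern1 was highest by median in plasmacytoid dendritic-like cells (24.5 to 35.4 CPM) and lowest by median in erythroid-like cells. The plasmacytoid dendritic-like class held only 16, 36, 92 and 125 cells. Eif2ak3 was highest in B cell-like cells at 50.3 to 109 CPM and had a median of 12.8 CPM in chondrocyte-like cells. Creb3l1 stood highest by median in osteoblast-like cells, at 269.5 CPM, and Creb3l2 in chondrocyte-like cells, at 98.1 CPM. Each was highest there in 3 of the 4 libraries, and its range overlapped that of the second class. Ddit3 ran the other way: neutrophil-like cells had 139 to 204 CPM, and chondrocyte-like cells, with a median of 33.2 CPM, were the lowest of the 12 classes. Levels of different genes were not compared, since 3′ tags are counted with gene-specific efficiency.

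**Figure D1:**
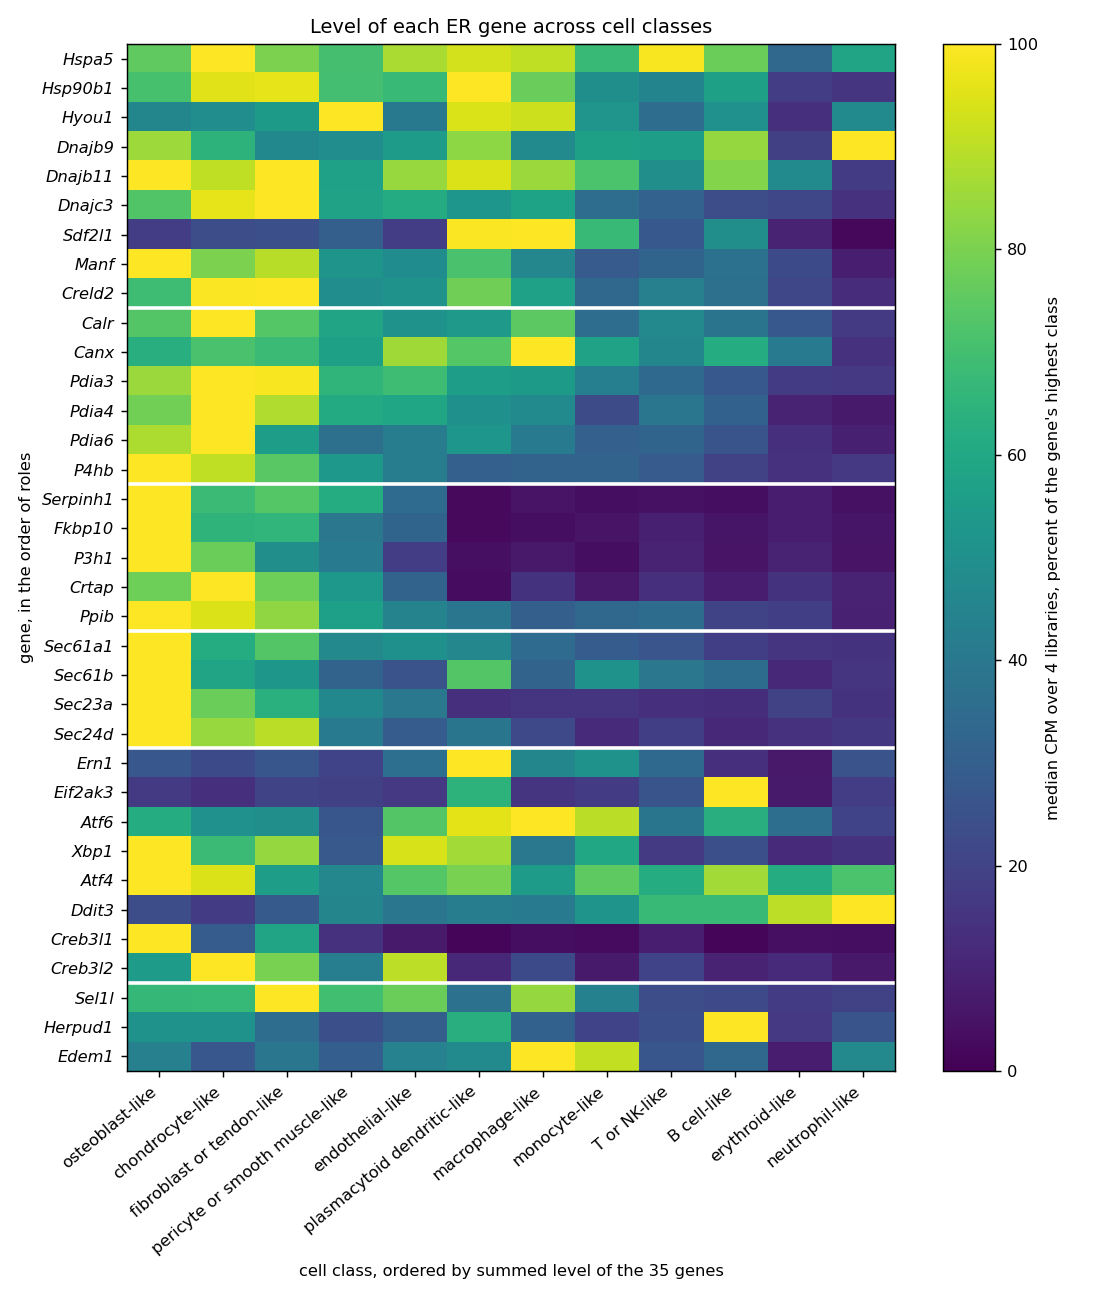
Median CPM over the libraries of each of the 35 genes (rows, in the order of roles, white lines between roles) in 12 cell classes (columns, ordered by summed level), as a percentage of the gene's highest class. Procollagen, translocation and COPII genes are brightest in osteoblast-like or chondrocyte-like cells at the left, Eif2ak3 and Herpud1 in B cell-like and Ddit3 in neutrophil-like cells.

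Mutant chondrocyte-like cells had more Creb3l1 and Ddit3 and less P3h1, Creb3l2, Sec61b, Ppib, Pdia6 and Serpinh1 than wild-type cells when both ages were fitted together. Those were 8 of the 35 genes (2 rose, 6 fell), where 28.2% of all 15141 genes tested passed (14.9% higher, 13.2% lower), so their share of calls, 22.9%, lay near that of all genes. The test was edgeR's quasi-likelihood test on counts summed per library, with age as a covariate and Benjamini-Hochberg adjustment at 0.05. With 1 residual degree of freedom its p-values rest on how far the genotype difference changes between the ages, and on dispersions shared between genes, not on the spread between mice. The median fitted log2 difference was -0.16 for the 35 genes and 0.01 for all genes. Scaling bears on the count: without TMM (trimmed mean of M values) scaling, 3 rose and 2 fell, since TMM lowers the mutant by 0.25 at day 13 and 0.11 at day 19 on the log2 scale. In the 5 clusters that every library filled, 2 rose and 2 fell.

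At each age alone there was no test, and the log2 ratio of mutant over wild-type CPM is given with its exact 95% counting interval, which covers counting error only. At day 13 the interval lay above 0 for 20 of the 35 genes (51.0% of all genes) and below 0 for 9 (17.5%). At day 19 it lay above 0 for 11 (34.4%) and below 0 for 20 (23.0%). The share of genes above 0 was thus smaller at day 19 both for the 35 genes and for all genes. The median log2 ratio moved from 0.23 to -0.12 for the 35 genes and from 0.26 to 0.12 for all genes. By sign alone, 22 of the 35 ratios lay above 0 at day 13 (70.0% of all genes) and 13 at day 19 (59.1%). The interval lay above 0 at both ages for 7 genes (28.9% of all genes), namely Dnajb9, Fkbp10, Atf6, Ddit3, Creb3l1, Sel1l and Edem1. It lay below 0 at both ages for 5 (12.4%), namely Pdia6, P3h1, Ppib, Sec61b and Creb3l2, and below 0 at day 13 but above 0 at day 19 for Sec61a1 and Atf4 (1.12%). For 12 of the 35 the interval was above 0 at day 13 and below 0 at day 19, a pattern held by 4.52% of all genes; after TMM scaling it was 8 of 35 and 2.23%. The 12 were Hspa5, Hsp90b1, Hyou1, Dnajb11, Dnajc3, Sdf2l1, Manf, Creld2, Calr, Canx, Pdia3 and Pdia4, of which Canx was at -0.02 at day 13 after TMM scaling. All 12 are chaperones, folding factors or disulphide isomerases. Of the 29 genes with a promoter entry 10 had this pattern, and of the 7 with the ER stress response element 6 had it (all but Pdia6). After TMM scaling these counts were 7 of 29 and 4 of 7. All 7 genes with the element are themselves chaperones, folding factors or isomerases, so the element was not told apart from role. The difference between the ages itself could not be tested, since no residual degree of freedom is left.

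**Figure D2:**
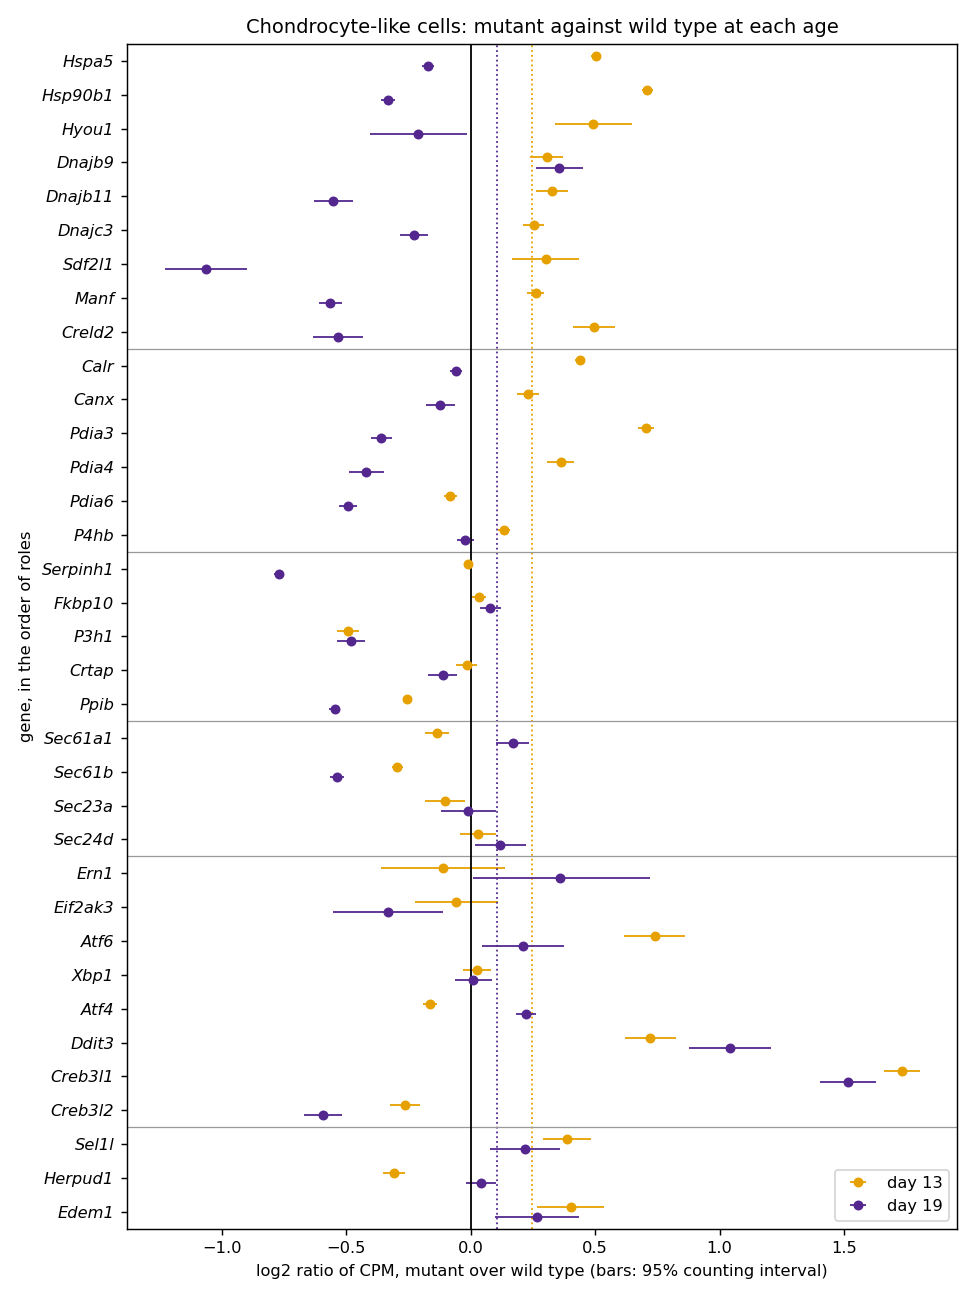
Log2 ratio of CPM, mutant over wild type, in chondrocyte-like cells for each of the 35 genes (rows, in the order of roles) at day 13 and day 19, with 95% counting intervals as bars; dotted lines mark the ratio that TMM scaling takes as no change. Most lumenal chaperones lie right of 0 at day 13 and left of it at day 19, while Creb3l1, at 1.73 and 1.52, stands apart at both ages.

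Among the 9 lumenal chaperones and folding factors, 9 had a ratio above 0 at day 13 and 8 a ratio below 0 at day 19, by sign under both scalings. Of all genes, 70.0% lay above 0 at day 13 and 59.1% at day 19 without TMM scaling. After TMM scaling the intervals of Dnajc3, Sdf2l1 and Manf no longer lay above 0 at day 13 and below 0 at day 19. That of Dnajb9 no longer lay above 0 at both ages. None of the 9 passed the test over both ages (1 had an unadjusted p under 0.05). Hspa5, the BiP chaperone, was at 708, 1004, 1087 and 965 CPM. Its log2 ratio was 0.50 (interval 0.48 to 0.52) at day 13 and -0.17 (-0.20 to -0.15) at day 19. The wild-type library at day 13 was thus the low one, and the other 3 lay close together. Hsp90b1, the ER form of HSP90 (GRP94), showed the same arrangement at 509, 832, 890.0 and 706 CPM, with ratios of 0.71 and -0.33. Sdf2l1, a stress-inducible lumenal factor, was at 16.8, 20.7, 35.8 and 17.2 CPM, and its ratio at day 19 was -1.06 (-1.23 to -0.90). Here the wild-type library at day 19 was the one apart, 2.09-fold above the mutant of that age. Creld2 (40.7, 57.4, 79.5 and 54.9 CPM) and Manf (243, 292, 406 and 274 CPM), which encode secreted stress-inducible proteins, and the HSP40 cochaperone Dnajb11 (73.5, 92.1, 132 and 89.7 CPM) were also highest in wild type at day 19. Their day-19 ratios were -0.54, -0.56 and -0.55. The cochaperone Dnajc3 and the large HSP70 relative Hyou1 had smaller ratios, 0.25 and -0.23 for the first and 0.49 and -0.21 for the second. Dnajb9, a cochaperone that restrains IRE1, was the exception, at 72.0, 88.9, 69.2 and 88.5 CPM and higher in the mutant at both ages (0.30 and 0.36).

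Of the 6 lectin chaperones and disulphide isomerases, 1 fell (Pdia6) and none rose. Pdia3 (ERp57, which works with the lectin chaperones) was at 255, 415, 437 and 340.4 CPM, with log2 ratios of 0.70 (0.67 to 0.74) at day 13 and -0.36 (-0.40 to -0.32) at day 19. Calr was at 884, 1198, 1053 and 1010.3 CPM, so its day-13 ratio of 0.44 was the larger and its day-19 ratio of -0.06 lay close to 0. Both had their lowest value in wild type at day 13, and neither passed over both ages (adjusted p = 0.993 for Pdia3 and 0.965 for Calr, edgeR's quasi-likelihood test). Pdia4, a further isomerase, had ratios of 0.36 and -0.42, and Canx, the membrane-bound lectin chaperone, 0.23 (-0.02 after TMM scaling) and -0.12. Pdia6, at 522, 493, 637 and 452 CPM, was lower in the mutant at both ages; its fitted log2 difference was -0.46 ± 0.15 (SE; adjusted p = 0.0285). P4hb, which doubles as the beta subunit of collagen prolyl 4-hydroxylase, was at 533, 586, 601 and 593 CPM and did not pass (adjusted p = 0.578); its day-13 ratio of 0.13 became -0.11 after TMM scaling.

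Of the 5 procollagen factors, 3 fell (P3h1, Ppib and Serpinh1) and none rose. P3h1 (ENSMUSG00000028641; chromosome 4, 119232915 to 119248975, plus strand, GRCm38), the collagen prolyl 3-hydroxylase, was at 236, 168, 246 and 176 CPM, so both mutant libraries lay below both wild-type libraries. Its log2 ratios were -0.49 (-0.54 to -0.45) and -0.48 (-0.54 to -0.43), and the fitted difference was -0.66 ± 0.13 (SE; adjusted p = 0.00143). Ppib (cyclophilin B), a prolyl isomerase that sits in 1 complex with P3h1, was at 1353, 1132, 1649 and 1129 CPM and fell by 0.58 ± 0.16 on the log2 scale (adjusted p = 0.0153). Crtap, the non-enzymatic member of that complex, was at 208, 206, 199 and 184 CPM, a fitted difference of -0.24 ± 0.13 that did not pass (adjusted p = 0.174). Of the 3 partners, P3h1 and Ppib thus passed and Crtap, with the same sign, did not, and differences between them were not tested. Serpinh1 was at 1592, 1578, 2693 and 1577 CPM: 3 libraries were alike and wild type at day 19 stood 1.71-fold above the mutant of that age. It fell by 0.57 ± 0.19 (adjusted p = 0.0377), the weakest call of the 8, which was lost under 6 of 9 alternatives. Fkbp10 (FKBP65), a collagen-binding prolyl isomerase, was at 378.5, 387, 380.4 and 402 CPM and did not pass (adjusted p = 0.559); its ratios of 0.03 and 0.08 became -0.21 and -0.03 after TMM scaling.

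Sec61b, a small subunit of the translocation channel, was the 1 gene of 4 in its group to pass. It was at 811.5, 662, 999 and 688 CPM, below wild type at both ages, and fell by 0.59 ± 0.15 on the log2 scale (SE; adjusted p = 0.00857, edgeR). Sec61a1, the pore-forming subunit of the same channel, was at 164.5, 149.7, 144 and 162 CPM, with ratios of -0.14 and 0.17 and no call (adjusted p = 0.424). The COPII coat genes Sec23a, at 51.5 to 56.7 CPM, and Sec24d, at 64.0 to 69.5 CPM, stayed within narrow ranges over the 4 libraries; both are known for skeletal defects when lost.

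Of the 8 sensors and transcription factors, Creb3l1 and Ddit3 rose and Creb3l2 fell. Creb3l1 (ENSMUSG00000027230; chromosome 2, 91982328 to 92024502, minus strand, GRCm38) was at 38.7, 129, 40.8 and 117 CPM: the 2 mutant libraries were 3.32-fold and 2.86-fold above wild type of the same age, with no overlap between genotypes. Its log2 ratios were 1.73 (1.66 to 1.80) and 1.52 (1.40 to 1.63), and the fitted difference was 1.45 ± 0.13 (SE; adjusted p = 1.46e-06, edgeR's quasi-likelihood test). Creb3l2 (ENSMUSG00000038648; chromosome 6, 37327255 to 37442146, minus strand), its chondrocyte relative, went the other way at 103, 86.1, 140.2 and 92.8 CPM, with a fitted difference of -0.61 ± 0.12 (adjusted p = 0.00227). The summed osteoblast and fibroblast markers given above were also higher in both mutant libraries, and Creb3l1 was high in both of those classes; their part in its rise was not tested. Ddit3 (ENSMUSG00000025408; chromosome 10, 127290774 to 127296288, plus strand) was at 25.1, 41.4, 20.1 and 41.2 CPM, about equal in the 2 mutant libraries, and rose by 0.70 ± 0.15 (adjusted p = 0.00289). Atf4, which lies upstream of Ddit3, was at 472, 422, 394 and 460.2 CPM, with ratios of -0.16 and 0.22 and no call (adjusted p = 0.53). The 3 sensors themselves did not pass: Ern1 was at 5.13 to 6.58 CPM, Eif2ak3 at 12.6 to 15.8 CPM (adjusted p = 0.0891) and Atf6 at 18.2, 30.3, 24.1 and 27.9 CPM (adjusted p = 0.148; without TMM scaling 0.0215, the third gene to rise there). Xbp1 was at 111, 113, 124 and 125 CPM, with ratios of 0.03 and 0.01 that turned negative after TMM scaling. These tags do not show Xbp1 splicing, translation or cleavage of ATF6, so the activity of the 3 branches was not measured.

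**Figure D3:**
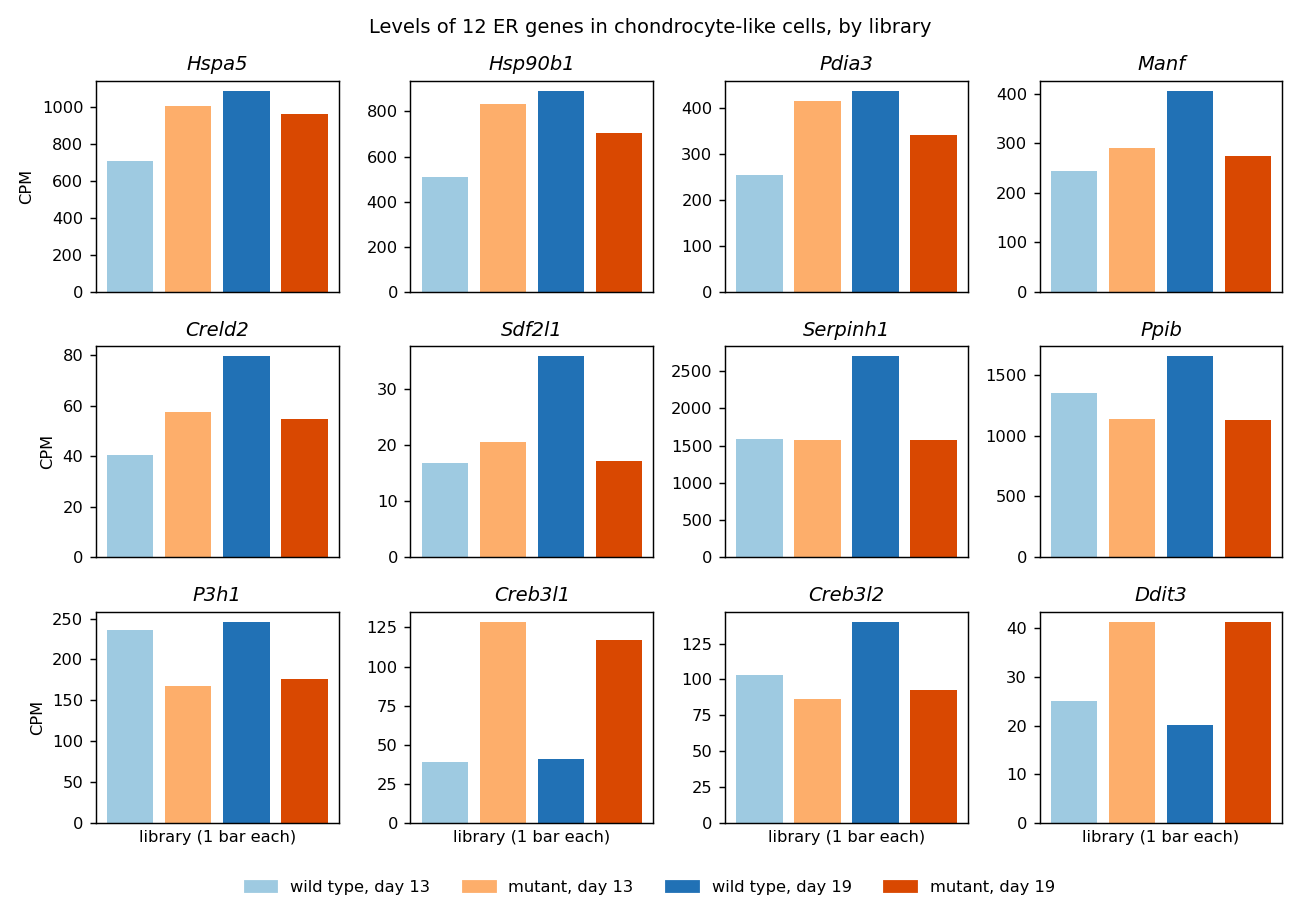
CPM in chondrocyte-like cells of 12 of the 35 genes, 1 panel per gene and 1 bar per library (light, day 13; dark, day 19; blue, wild type; orange, mutant); every axis starts at 0 and there are no error bars because each group is 1 library. Hspa5, Hsp90b1 and Pdia3 have their lowest bar in wild type at day 13, Sdf2l1 and Serpinh1 their highest in wild type at day 19, and Creb3l1 and Ddit3 are high in both mutant libraries.

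The rise of Creb3l1 was also read as the share of chondrocyte-like cells with a UMI after thinning each cell to 2000 UMIs. It was 8.23% (exact binomial interval 7.42 to 9.10), 21.7% (20.3 to 23.2), 7.12% (5.65 to 8.83) and 18.5% (17.1 to 20.0). Before thinning the shares were 31.2%, 60.0%, 39.4% and 56.2%, at median depths of 11625, 10611, 16545 and 9440.5 UMIs, and thinning left out 125, 134, 21 and 115 shallower cells. Neutrophil-like cells, which should lack Creb3l1, had 0.877%, 5.42%, 0.980% and 1.77% at the same 2000 UMIs (median depths before thinning 1772, 2051.5, 3065 and 2255). The shares in chondrocyte-like cells thus lay above those in neutrophil-like cells in every library. Neutrophil-like shares were also higher in the mutant library of each age, and the part of stray transcripts in the rise was not tested. With a median depth of 1772 UMIs, most neutrophil-like cells of wild type at day 13 were left out by thinning. For Ddit3 the shares were 4.88%, 7.83%, 4.49% and 8.16%, higher in both mutant libraries. Neutrophil-like cells had 19.3%, 23.3%, 24.2% and 22.8%, but they express Ddit3, and no class with a lower level than chondrocyte-like cells was there to set a background.

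Within the 5 clusters filled by every library, Creb3l1 had a ratio above 0 in 10 of 10 comparisons (5 clusters, 2 ages), each with an interval above 0; 6.8% of genes had 10 of 10 ratios above 0, and Fkbp10 was the only other of the 35, on CPM without TMM scaling. None of the 35 had 10 of 10 below 0 (2.22% of genes). The size differed by cluster. In cluster 0, led by Prg4 and Cilp, Creb3l1 was at 126, 185, 109 and 170.4 CPM, and in cluster 1 at 55.0, 77.2, 56.1 and 77.5 CPM. In cluster 3 it was at 16.1, 70.6, 20.5 and 57.8 CPM, in cluster 4 at 17.3, 101.5, 19.8 and 127 CPM, and in the cycling cluster 9 at 10.8, 120.3, 16.4 and 88.0 CPM. Wild-type levels were thus lowest in clusters 3, 4 and 9, where the day-13 ratios were 2.13, 2.55 and 3.48, and ratios were 0.47 to 0.64 in clusters 0 and 1. The 2 clusters that came almost wholly from mutants had 114 and 121 CPM (cluster 5) and 145 and 120.5 CPM (cluster 6) in the mutant libraries. In osteoblast-like cluster 10 the mutant had 436 and 333.5 CPM, both above the median of 269.5 CPM over the 4 libraries. Wild type had only 56 and 18 cells there. In fibroblast or tendon-like cluster 12 the mutant values of 156 and 142 CPM lay beside 187 and 124 CPM in wild type. Creb3l2 was below wild type in 8 of 10 comparisons, with 7 intervals below 0.

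**Figure D4:**
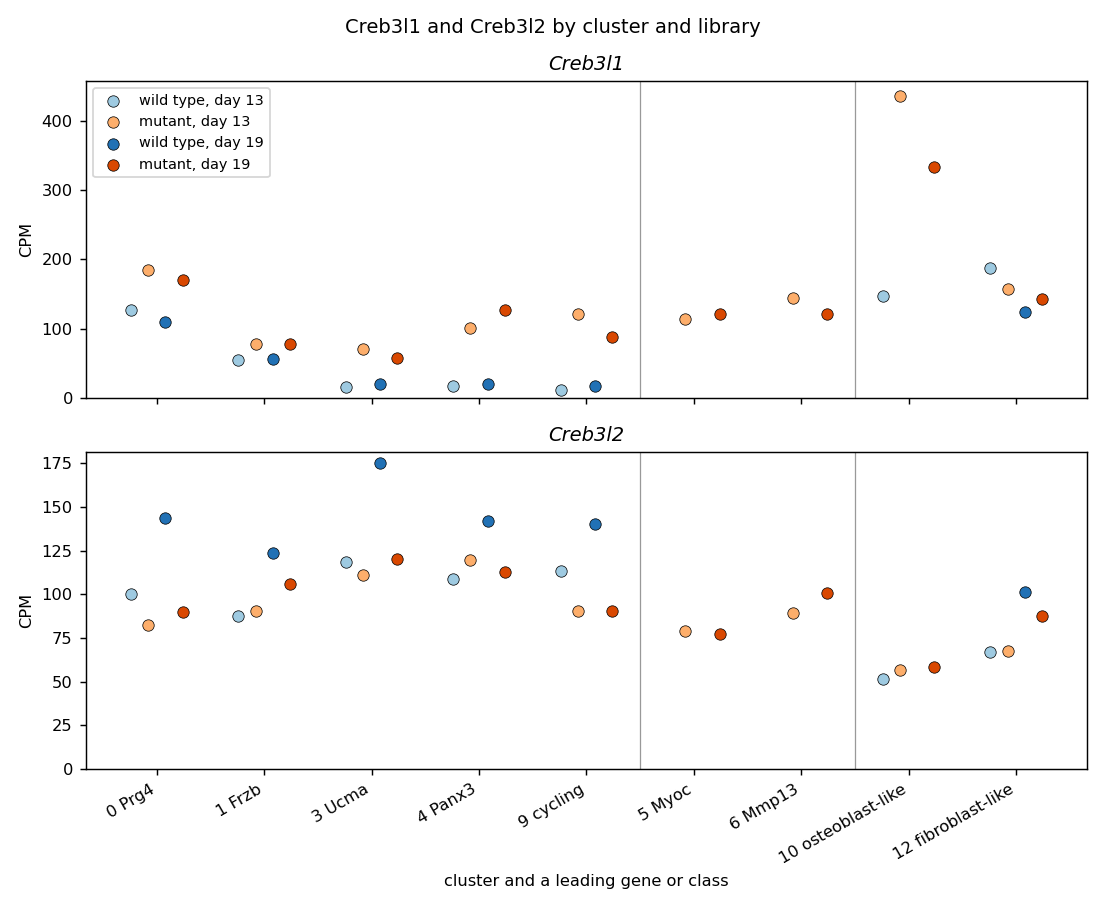
CPM of Creb3l1 (upper panel) and Creb3l2 (lower panel) in 9 clusters, 1 point per library; grey lines separate the 5 clusters filled by every library, the 2 chondrocyte-like clusters that came from mutants, and an osteoblast-like and a fibroblast-like cluster. Creb3l1 points of the mutant lie above wild type in the first 5 clusters, most widely in clusters 3, 4 and 9.

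The other calls were less even within clusters. Ddit3 was higher in the mutant in 9 of 10 comparisons (17.4% of genes reached 9 or more), with 6 intervals above 0. Ppib was lower in 9 of 10, with 8 intervals below 0, and P3h1 in 8 of 10, with 2 intervals below 0; 10.9% of genes were lower in 8 or more. The median ratio of P3h1 over the 10 was -0.10, against -0.49 and -0.48 at the 2 ages for the whole class. Its level was 328, 294, 305 and 320 CPM in cluster 4, which the mutant libraries mostly lacked, and 135 and 141 CPM in the mutant cells of cluster 5. Serpinh1 was higher in the mutant in 5 of 5 clusters at day 13 and lower in 4 of 5 at day 19, and its level was highest in cluster 4 at 2255, 2672, 3409 and 3055 CPM. Sec61b and Pdia6 were each higher in 5 and lower in 5 of the 10. The part of the cluster mix in the difference over the whole class was not separated further. The crossing between ages held in part. At day 13 the ratio was above 0 in 5 of 5 clusters for 16 of the 35 genes (21.1% of all genes), and for 3 of them, Dnajb11, Pdia3 and Pdia6, it was also below 0 in 5 of 5 at day 19 (0.711%). Pdia3 had ratios of 0.54 to 0.69 at day 13 and -0.54 to -0.23 at day 19, with every interval excluding 0. Among the other 10 genes that crossed in the whole class, Hspa5, Hsp90b1 and Creld2 were higher in 5 of 5 clusters at day 13 and lower in 3 of 5 at day 19, and Sdf2l1 and Manf lower in 4 of 5. Calr, Canx and Hyou1 were higher in the mutant in 3 of 5 clusters at day 19 too, so their crossing did not hold in most clusters. Dnajc3 and Pdia4 were lower in 5 of 5 at day 19 and higher in 3 and 4 of 5 at day 13, where 1 interval of Pdia4 lay above 0.

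Of the 3 degradation genes none passed. Sel1l, the adaptor of the HRD1 ubiquitin ligase, was at 32.2, 42.1, 32.5 and 37.7 CPM. Edem1, a mannosidase-like lectin that directs glycoproteins to degradation, was at 16.5, 21.8, 22.3 and 26.8 CPM. Herpud1, with the 2 promoter elements shown above, was at 210.7, 170.2, 182 and 188 CPM, lower in the mutant at day 13 (-0.31) and near equal at day 19 (0.04). Sel1l and Edem1 were higher in the mutant at both ages, by 0.22 to 0.40 on the log2 scale.

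Other genes of the same pathways were counted from 7 lists. Of 20 further translocon and signal peptide genes, 14 fell and none rose (13.2% of all genes fell), among them the signal recognition particle receptor subunit Srprb (56.8, 38.4, 77.4 and 47.1 CPM) and the translocon-associated Ssr3 (239, 177, 278 and 172 CPM). Of 21 COPII and early traffic genes, 10 fell and none rose, with Mcfd2, a cargo receptor partner, at 44.3, 27.7, 47.6 and 31.4 CPM and the KDEL receptor Kdelr3 at 317, 213, 357 and 236 CPM. Of 17 collagen modification genes, 10 fell and 1 rose. The prolyl isomerase gene Fkbp11 was at 331, 123, 354 and 139 CPM, and Colgalt2, for a collagen galactosyltransferase, at 52.0, 20.5, 56.9 and 20.3 CPM. Fkbp7 was the gene that rose (63.8, 171, 85.7 and 150.5 CPM). These 3 lists had fitted medians of -0.46, -0.34 and -0.64, against 0.01 over all genes. Without TMM scaling their median ratios were -0.14, -0.16 and -0.32 at day 13, where that of all genes was 0.26. At day 19 they were -0.43, -0.25 and -0.54, where that of all genes was 0.12. The difference between the ages was not tested.

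The stress-related lists were mixed, and their counts are to be read against 14.9% of all genes that rose and 13.2% that fell. Of 19 PERK and ATF4 targets, 3 rose and 8 fell. Ddit4, which restrains mTORC1, rose (15.3, 39.6, 25.5 and 50.2 CPM), as did the transcription factor gene Cebpb (179.8, 323, 121 and 405 CPM). The glutathione-degrading Chac1 (3.90, 1.15, 2.56 and 0.931 CPM) and the mitochondrial folate enzyme gene Mthfd2 (74.4, 34.1, 94.8 and 46.3 CPM) fell. Ddit3 and these targets therefore did not move one way. Of 18 other ER chaperones and disulphide enzymes, 3 rose and 2 fell, with the oxidase Ero1lb (1.41, 2.70, 0.854 and 2.66 CPM) and the BiP nucleotide exchange factor Sil1 (33.3, 46.9, 27.7 and 44.8 CPM) higher and the isomerases Pdia5 (35.9, 22.3, 49.9 and 22.7 CPM) and Txndc5 (139, 129, 175 and 135 CPM) lower. Of 16 degradation genes 3 fell, among them Selenos (427, 294, 514 and 319 CPM) and Edem2 (11.9, 9.20, 15.98 and 9.64 CPM), and of 12 regulators 1 fell, the translation factor gene Eif2s1 (54.3, 42.2, 70.1 and 46.4 CPM).

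With age, most folding genes were higher at day 19 in wild-type chondrocyte-like cells, and fewer were in the mutant; the difference between the genotypes in this was not tested. The interval of the day 19 over day 13 ratio lay above 0 for 23 of the 35 genes in wild type (33.4% of all genes) and for 10 in the mutant (14.2%). It lay below 0 for 5 in wild type (13.0%) and for 11 in the mutant (16.9%). All age ratios here are on CPM without TMM scaling. That scaling would shift them by -0.12 in wild type and 0.02 in the mutant on the log2 scale, bringing the genotypes closer. In wild type 8 of 9 lumenal chaperones had a ratio above 0 (61.3% of all genes), with a median log2 ratio of 0.74, as did 6 of 6 lectin chaperones and isomerases, with a median of 0.31. In the mutant the 2 groups had medians of -0.06 and -0.17, with 1 gene of each above 0 (45.0% of all genes). Medians over all genes were 0.11 in wild type and -0.03 in the mutant. In wild type the ratio was 1.09 for Sdf2l1, 0.97 for Creld2, 0.84 for Dnajb11, 0.81 for Hsp90b1, 0.78 for Pdia3, 0.76 for Serpinh1 and 0.62 for Hspa5. The same genes had -0.27, -0.06, -0.04, -0.24, -0.29, 0.00 and -0.06 in the mutant. Since these comparisons and the genotype ratios share their 4 libraries, they restate one arrangement of values.

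Fitted over both genotypes, age gave no call among the 35 genes, where 1.29% of all genes passed edgeR's quasi-likelihood test. Creld2, Edem1 and Dnajb11 had an unadjusted p under 0.05 there (0.0376, 0.0396 and 0.0428), and DESeq2 also called 0. Within clusters, 19 of the 35 genes were higher at day 19 in all 5 clusters in wild type (19.2% of all genes), the 12 with opposite genotype ratios among them. In the mutant 1 gene, Edem1, was higher in all 5 (5.6%). Depth differed with age as well: the median over all cells was 9665 and 8958 UMIs at day 13 and 5457 and 5332 at day 19, but in wild-type chondrocyte-like cells it was higher at day 19 (16545 against 11625). The part of depth in the age ratios was not tested.

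**Figure D5:**
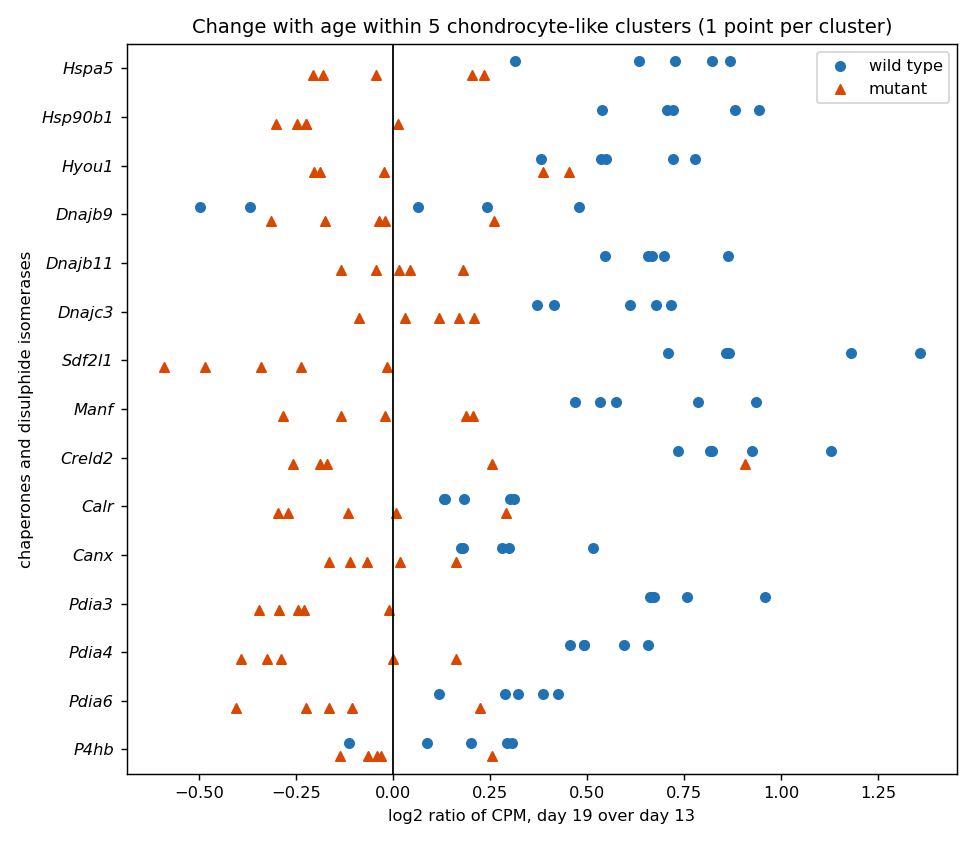
Log2 ratio of CPM, day 19 over day 13, for the 15 chaperones and disulphide isomerases (rows) within 5 chondrocyte-like clusters, 1 point per cluster (circles, wild type; triangles, mutant). Wild-type points lie right of 0 for 13 of the genes in every cluster, the exceptions being Dnajb9 and P4hb, while mutant points scatter around 0.

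Fibroblast or tendon-like cells showed a like arrangement of chaperones, again without a call. Hspa5 was at 566, 805, 1104 and 773 CPM there, Pdia3 at 295, 438, 476 and 310.2 CPM, and Hsp90b1 at 574, 899.7, 876 and 676 CPM. From day 13 to day 19 the ratio was above 0 for 9 of 9 lumenal chaperones in wild-type cells (58.7% of all genes), with a median of 0.73, and for 2 of 9 in mutant cells (50.4%), with a median of -0.07. The genotype ratio was above 0 for 9 of 9 at day 13 (52.3% of all genes) and 1 of 9 at day 19 (45.9%). No member passed the genotype test in this class (1.12% of genes passed; 2 of the 35 had an unadjusted p under 0.05), and Creb3l1 was near equal between genotypes, at 175, 173, 136 and 142 CPM. The median genotype ratio of the lumenal chaperones was also lower at day 19 than at day 13 in most blood classes. It was 0.15 and -0.17 in B cell-like, 0.11 and -0.16 in macrophage-like, 0.18 and 0.03 in monocyte-like and 0.17 and -0.01 in neutrophil-like cells. Erythroid-like cells, at 0.37 and 0.47, differed. A lower median at day 19 was thus not particular to skeletal cells, though in monocyte-like cells it stayed above 0 at both ages. The median age ratio in wild type was 0.23 in B cell-like, 0.32 in macrophage-like and 0.29 in monocyte-like cells. It was -0.02 in neutrophil-like and -0.27 in erythroid-like cells. Over all genes these 5 medians were -0.19, -0.11, -0.04, -0.35 and -0.79. The cause was not tested.

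Creb3l1 also rose in 3 blood classes, at much lower levels. It was at 2.36, 21.1, 1.78 and 6.59 CPM in B cell-like cells (2.21 ± 0.42, SE; adjusted p = 0.00409, edgeR; 1 of 35 genes called, where 2.5% of all genes passed and 1.67% rose). In erythroid-like cells it was at 6.79, 22.5, 1.87 and 14.98 CPM (2.20 ± 0.36; adjusted p = 0.0254; 1 of 34 called, where 1.68% passed and 1.33% rose). Macrophage-like cells had 7.72, 27.8, 3.57 and 12.5 CPM (1.79 ± 0.49; adjusted p = 0.0402). These rest on 3 to 82 UMIs per library. Serpinh1 fell in macrophage-like cells by 0.93 ± 0.26 on the log2 scale (adjusted p = 0.0452), the second of 2 calls there (2.6% of all genes passed, 1.41% higher and 1.19% lower), and both were lost without TMM scaling. In neutrophil-like cells, where 3.3% of all genes and none of 32 members passed (4 had an unadjusted p under 0.05), osteoblast markers summed to 710.3, 3036, 91.5 and 1081 CPM, fibroblast markers to 1179, 3180, 524 and 1545 CPM and chondrocyte markers to 13394, 5063, 1994 and 2509 CPM. Of the osteoblast markers, 1 of 14 was at 0 in all 4 libraries. Skeletal transcripts were thus counted in blood cells at levels that differed between libraries, and their part in the calls of Creb3l1 in blood classes was not tested. In monocyte-like cells none of 34 members passed for genotype (0.548% of all genes passed; 2 had an unadjusted p under 0.05).

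Of the 35 genes, those called for age in blood classes were lower at day 19. Serpinh1, Fkbp10, Crtap and P3h1 fell with age in B cell-like cells (4 of 35; 1.05% of all genes passed and 0.788% fell), Serpinh1 in monocyte-like cells (1 of 34; 0.699% passed and 0.576% fell), and Serpinh1, Fkbp10 and Pdia6 in neutrophil-like cells (3 of 32; 3.43% passed and 2.4% fell). Serpinh1 was at 155, 164, 36.9 and 61.9 CPM in neutrophil-like cells, and the summed chondrocyte markers given above were likewise lower there at day 19; their part in these calls was not tested. No member passed for age in erythroid-like (0.0% of all genes; 4 of 34 members had an unadjusted p under 0.05), fibroblast or tendon-like (0.234%; 2 of 35) or macrophage-like cells (1.76%; 3 of 35).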

How the data were processed

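Single-cell 3′ libraries were sequenced from 4 samples, 1 per genotype and age. The authors deposited UMI counts per gene and barcode; per the file headers they were made with Cell Ranger 3.1.0, and the submitters' processing notes name build mm10 and Seurat 3. The series' design text names older mice and a further genotype; the samples' own labels were followed. The 35 genes and the gene lists were chosen with earlier results of these data known. Barcodes needed 500 detected genes and a mitochondrial share of UMIs no higher than 15%, and those with a Scrublet score above 0.25 were removed (100, 126, 85 and 243); this score was set after the automatic threshold had marked none in 2 libraries.

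Cells were clustered with scanpy 1.11.5 (2000 variable genes without the 35 genes and the pathway lists, 30 components, Leiden resolution 1.0), giving 30 clusters. A cluster was named from 3 or more markers among its 50 leading genes. Clusters 5, 6 and 9 were called chondrocyte-like by a second rule set after the clusters were seen: at least 10 chondrocyte markers 3-fold above blood cells. Clusters 5 and 6 had 18 and 17 such markers. Osteoblast-like cluster 10 had 18 and pericyte or smooth muscle-like cluster 20 had 17, so this count does not tell chondrocytes from these cells. With doublets kept, the cluster led by Myoc and Penk was named osteoblast-like. Clusters that met neither rule stayed unnamed. Counts were summed per library and class, and CPM is the count per 1000000 UMIs of the class. Tests used edgeR 4.0.16 (quasi-likelihood, TMM, filterByExpr, Benjamini-Hochberg over all genes tested) in R 4.3.3 in classes with 50 or more cells per library, checked on simulated data. All 35 genes passed the filter in chondrocyte-like cells. Intervals are exact 95% binomial and cover counting error only.

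From each pathway list, up to 2 genes that rose and 2 that fell are named, those with the largest smaller ratio of the 2 ages. Alternatives were DESeq2 1.42.0, no TMM, no filter, 1000 genes per barcode, doublets kept, clustering with the 35 genes or at resolution 0.5, and all skeletal cells; shared clusters only and TMM-scaled ratios were added after the data were seen.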

Additional observations from a re-analysis of the deposited data

Results flagged for a closer look

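For 9 of the 35 genes the mutant lay on one side of wild type at day 13 and on the other at day 19 in chondrocyte-like cells, under both scalings and with counting intervals that excluded 0. The difference between the ages was not tested, since each group is 1 library. Log2 ratios at day 13 and day 19 were 0.50 and -0.17 for Hspa5, 0.71 and -0.33 for Hsp90b1, and 0.49 and -0.21 for Hyou1. They were 0.32 and -0.55 for Dnajb11, 0.50 and -0.54 for Creld2, and 0.44 and -0.06 for Calr. Pdia3 had 0.70 and -0.36, and Pdia4 had 0.36 and -0.42. Atf4 ran the other way, at -0.16 and 0.22. In 8 of these the wild-type library at day 13 was the lowest of the 4, and in Atf4 it was the highest.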

How the results depend on the processing

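Creb3l1, Ddit3, P3h1 and Creb3l2 passed under all 9 alternatives, with adjusted p of at most 0.000626, 0.048, 0.0367 and 0.0309. None of these held the mix of clusters fixed, since the 5 shared clusters were pooled in unequal shares. Within those clusters the median ratio of P3h1 was -0.10, with 2 of 10 intervals below 0. Members that fell numbered 6, and 2 without TMM, in all skeletal cells and in the 5 shared clusters, where Pdia6, Serpinh1, Ppib and Sec61b were lost. Serpinh1 was lost also with doublets kept, with the 35 genes used for clustering and at resolution 0.5, the last with Pdia6. All genes called for genotype numbered 4268, against 2454 with DESeq2 and 2140 in shared clusters. For age the 195 calls became 513 without TMM, 93 with DESeq2, 12 with doublets kept, 61 with the 35 genes used for clustering, 17 at resolution 0.5, 22 in all skeletal cells and 19 in shared clusters, and no member passed in any. Without TMM 0 members passed in macrophage-like cells, and without a filter 1 in neutrophil-like cells. After TMM scaling, ratios whose interval excluded 0 changed sign for Canx (-0.016) and P4hb (-0.11) at day 13 and Fkbp10 at both ages (-0.21 and -0.028), as did ratios near 0 of Xbp1 at both ages, Sec24d at day 13 and Herpud1 at day 19. In all skeletal cells Sec61a1 (0.13), Sec61b (0.054) and Sec23a (0.056) did at day 13, as did the smaller ratios of Serpinh1 and Eif2ak3 at day 13 and of P4hb and Sec23a at day 19. Genes above 0 at day 13 and below 0 at day 19 numbered 12, and 8 to 14 under alternatives; those with the reverse numbered 2, and 1 to 3. The cause of these changes was not tested. Leaving out a library leaves no residual degree of freedom and was not run. No paired analysis was possible because each group is 1 library and no replicate number joins groups.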
